A study of Mus musculus with 90 samples.

Results

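The genes described here encode 10 digestive enzymes or cofactors known as products of pancreatic acinar cells, and they were looked up by their Entrez identifiers among the 20414 genes listed. They are the chymotrypsinogen gene Ctrb1 (66473), the elastase genes Cela1 (109901) and Cela2a (13706), the trypsinogen gene Prss2 (22072), the procarboxypeptidase genes Cpa1 (109697) and Cpb1 (76703), the triglyceride lipase gene Pnlip (69060), the lipase-related gene Pnliprp1 (18946), the carboxyl ester lipase gene Cel (12613) and the colipase gene Clps (109791). All 10 were found. The pancreas was not among the sampled tissues, and the genes were selected on their FPKM in a single spleen library, in duodenum and in stomach. Those levels are given as a description without a test. The phase comparisons in duodenum and stomach below use the same values again, so they are no independent support for the choice of genes.

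RNA was sequenced from 15 tissues of wild-type C57BL/6 female mice (C57BL/6J in the study's methods), 10 weeks old per the labels, that were in estrus or in diestrus by vaginal smear, with no other treatment or allele. Each tissue had 3 estrus and 3 diestrus libraries, which gave 90 libraries in all, and replicate numbers are those of the labels. The tissues were cerebrum and hypothalamus, ovary and uterus, heart and skeletal muscle, aorta and vein, stomach and duodenum, liver and kidney, brown (BAT) and white (WAT) adipose tissue, and spleen. Levels are FPKM, mapped fragments scaled to transcript length and library size, which can be compared between genes because they are per length. The steps between low values placed the depth at about 8750000 to 18200000 reads in 89 libraries and at about 73800 in BAT estrus replicate 3, whose values are therefore coarse. At that depth the smallest value above 0 for a member, about 1 read, was 0.03 FPKM for Cel and 0.11 FPKM for Clps, with the other 8 in between. No pair of libraries held identical values.

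As background, acinar cells fill the secretory lobules of the exocrine pancreas and store proenzymes in zymogen granules until a meal. Trypsinogen, chymotrypsinogen, proelastases and procarboxypeptidases digest protein, and in the gut lumen trypsin activates the others after enteropeptidase, made by duodenal enterocytes, has activated trypsin. Pancreatic lipase digests fat with colipase as its cofactor, and carboxyl ester lipase acts on a broad range of esters in the presence of bile salts. The transcription of these genes in acini is known to depend on the PTF1 complex of Ptf1a and Rbpjl, which binds an E-box next to a TC-box.

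The sequences before the starts of 5 members are shown because they stood for the different patterns below. Ctrb1, Cela2a and Pnlip had the highest levels in the spleen library. Outside that library Pnliprp1 was measured mainly in stomach, and Cela1 was measured in almost every tissue. Each is the 250 bases before the RefSeq start on GRCm38.p6, read 5′ to 3′ on the gene's strand, with matches to the E-box letters CACCTG and the TC-box letters TTTCCC, on either strand, in capitals.
Ctrb1 promoter, chr8:111691011-111691260, minus strand: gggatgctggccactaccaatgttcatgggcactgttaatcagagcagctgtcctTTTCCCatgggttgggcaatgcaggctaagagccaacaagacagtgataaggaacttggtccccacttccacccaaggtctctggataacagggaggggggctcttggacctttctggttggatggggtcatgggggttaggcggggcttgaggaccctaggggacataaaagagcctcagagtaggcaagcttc
Cela2a promoter, chr4:141826006-141826255, minus strand: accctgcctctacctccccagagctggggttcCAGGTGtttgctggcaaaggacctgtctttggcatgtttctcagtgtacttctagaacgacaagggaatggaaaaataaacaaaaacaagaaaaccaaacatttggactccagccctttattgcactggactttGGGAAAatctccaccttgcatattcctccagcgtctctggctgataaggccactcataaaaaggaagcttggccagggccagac
Pnlip promoter, chr19:58670115-58670364, plus strand: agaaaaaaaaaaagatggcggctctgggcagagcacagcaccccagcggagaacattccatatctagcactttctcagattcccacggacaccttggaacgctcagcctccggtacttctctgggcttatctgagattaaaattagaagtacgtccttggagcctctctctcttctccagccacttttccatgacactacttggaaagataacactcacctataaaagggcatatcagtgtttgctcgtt
Pnliprp1 promoter, chr19:58728637-58728886, plus strand: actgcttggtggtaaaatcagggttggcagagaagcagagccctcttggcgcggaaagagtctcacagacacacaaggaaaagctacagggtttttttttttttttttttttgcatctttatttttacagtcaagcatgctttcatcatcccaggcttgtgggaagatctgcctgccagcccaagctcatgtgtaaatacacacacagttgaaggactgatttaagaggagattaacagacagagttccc
Cela1 promoter, chr15:100687921-100688170, minus strand: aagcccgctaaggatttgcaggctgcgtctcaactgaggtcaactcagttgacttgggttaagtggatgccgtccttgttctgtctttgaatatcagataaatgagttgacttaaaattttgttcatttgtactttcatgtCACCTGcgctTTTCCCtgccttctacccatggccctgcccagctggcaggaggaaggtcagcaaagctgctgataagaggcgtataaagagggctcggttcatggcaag
Both motifs were found, at any spacing and on either strand, before 4 of the 9 members whose promoter was in the RefSeq table. These were Cela1, Cela2a, Cel and Prss2, against 3.61% of 32851 promoters of the same length. CACCTG alone was before 5 of 9 members and 17.2% of promoters, and TTTCCC before 6 of 9 and 21.9%, and no matches overlapped each other. Before Cela1 the first base of the E-box letters lay at position -109 and that of the TC-box letters at -99, both on the gene's strand. In the same order they lay at -218 and -84 before Cela2a, both on the other strand. Before Prss2 the E-box letters lay at -169 on the gene's strand, and the TC-box letters at -110 and -78 on the other. Before Cel the E-box letters lay at -170, -154, -134 and -65 and the TC-box letters at -86. The Pnlip start in this table was not found in a transcript of the GENCODE annotation used here, and no Clps promoter was in it. These are matches of letters and not measured binding.

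Spleen estrus replicate 2 held the highest levels of 9 of the 10 genes among all 90 libraries. Their FPKM summed to 5892, which was 1.11% of the summed FPKM of the library, while the sums in the other 5 spleen libraries lay between 4.25 and 18.5. All 10 stood at 10 or more FPKM and at least 10-fold above the highest of the other 5 spleen libraries, a rule met by 0.137% of the 20414 genes (28 genes). Of those 28 genes, 27 belonged to the members or to the lists of other acinar genes below. Those lists were chosen with earlier results of these data known. The remaining gene was Dmbt1 (17.1 FPKM, against at most 0.23), which encodes a mucosal scavenger receptor protein and is named after its value was seen.

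Among the proteases, Ctrb1 was measured at 1532 FPKM in spleen estrus replicate 2, at 2.08 and 0.07 in estrus replicates 1 and 3, and at 0.08, 0 and 0 in diestrus replicates 1 to 3. Cela2a was at 1021 FPKM in that library, at 2.26 and 0 in the other estrus libraries, and at 0 in all 3 diestrus libraries. Prss2 was at 438 FPKM, against 0.88 and 0.08 in estrus and 0, 0.16 and 0.16 in diestrus. These 3 genes were close to absent in 4 of the 6 spleen libraries, at a level of a few reads or none. Cela1 was at 436 FPKM in estrus replicate 2, at 9.17 and 4.38 in the other estrus libraries and at 3.74, 6.35 and 4.90 in diestrus, so it alone had a level of several FPKM in every spleen library, and its excess over the highest of them was 47.5-fold. The carboxypeptidase genes had similar levels in estrus replicate 2, 359 FPKM for Cpa1 and 387 FPKM for Cpb1, and did not exceed 0.53 FPKM in any other spleen library.

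The lipid-digesting genes showed the same division of the libraries. Pnlip was at 742 FPKM in spleen estrus replicate 2, at 0.98 and 0.04 in the other estrus libraries and at 0 in diestrus. Clps, the cofactor gene, was at 562 FPKM, against 1.33 and 0.30 in estrus and 0.37, 0.16 and 0.16 in diestrus. Cel was at 259 FPKM and Pnliprp1 at 157 FPKM, the lowest of the 10, while neither exceeded 0.62 FPKM in the other 5 libraries. The plot of all 3 tissues shows this library far above the other 5 spleen libraries for every gene, while for Clps all 6 stomach libraries were higher.

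**Figure D1:**
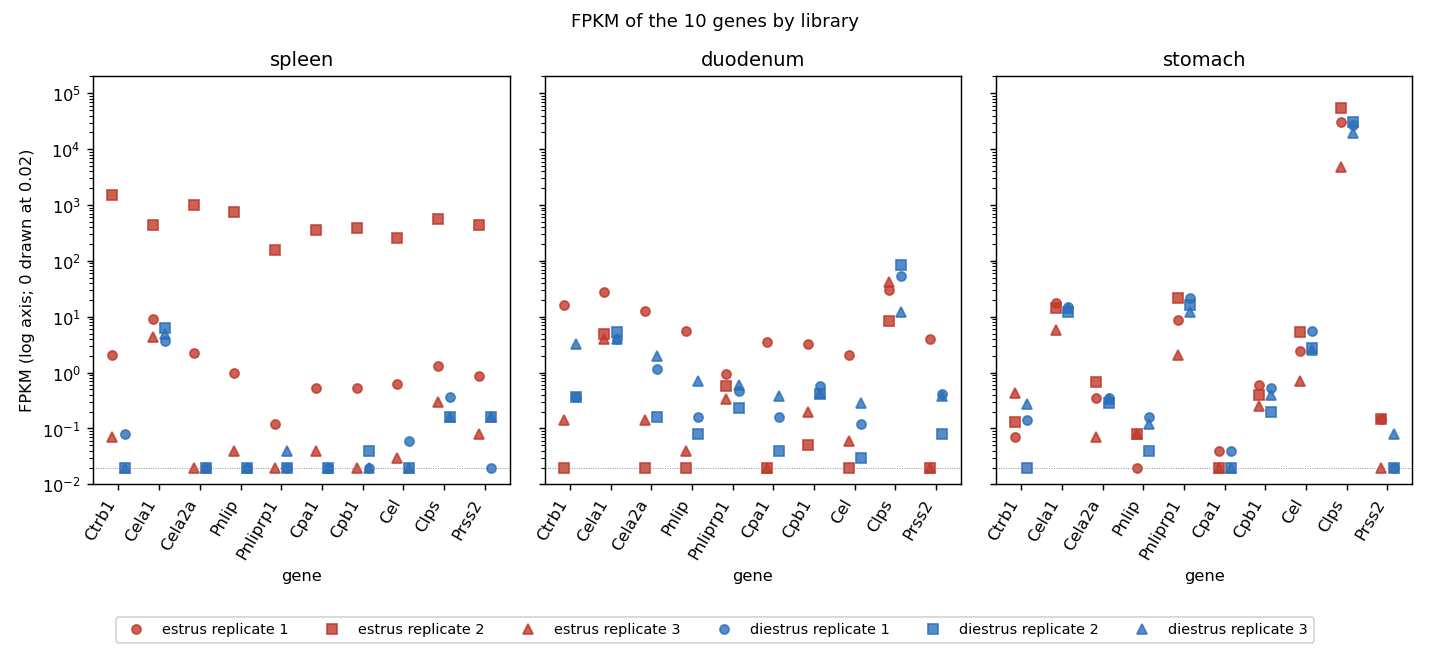
FPKM of the 10 genes (log axis, values of 0 drawn at 0.02) in each of the 6 libraries of spleen, duodenum and stomach, red for estrus and blue for diestrus, with a symbol for each replicate number. In spleen the squares of estrus replicate 2 lie between 157 and 1532 FPKM, in duodenum the circles of estrus replicate 1 lie above the other 5 libraries for 9 of the 10 genes, and in stomach Clps lies between 4877 and 54582 FPKM.

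Spleen estrus replicate 1 held small amounts of the same genes. All 10 were higher there than in the other 4 spleen libraries when estrus replicate 2 was set aside, against 21.7% of all genes. Their sum was 18.5 FPKM, against 4.25 to 6.71 in those 4 libraries. In relation to estrus replicate 2 the median gene stood at 0.174% of its level. The pancreatic amylase gene Amy2a5 was at 5.46 FPKM in estrus replicate 1 and at 0 in those 4. Of 10 enterocyte genes 6 were also above those 4 libraries, with a sum of 23.5 FPKM against 17.1 to 21.8, and the islet genes summed to 0.52 FPKM, against 0.23 to 0.33. Their part was not tested.

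Other acinar genes were present in spleen estrus replicate 2 in the same way. Of 17 other acinar enzyme genes, 11 met the same rule and all 17 were above the other 5 spleen libraries, a position held by 18.2% of all genes. Their summed level was 5100 FPKM, against 7.56 to 18.8, and the highest were Amy2a5 (2688 FPKM), the trypsinogen gene Try4 (574), the elastase gene Cela3b (339) and the ribonuclease gene Rnase1 (322). Of 15 granule and accessory genes 6 met the rule, with Reg1 (202 FPKM), the zymogen granule gene Sycn (200.2), Zg16 (176) and Gp2 (33.1), the gene of the main granule membrane glycoprotein, the highest of those more than 10-fold above the other libraries.

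The transcription factors of acinar cells were at low levels in the same library, but 5 of the 6 in the list were above the other 5 spleen libraries, beside the 18.2% of all genes. None reached 10 FPKM. Bhlha15, a regulator of secretory cell architecture, was at 4.09 FPKM, against 1.66 to 2.57. Rbpjl was at 2.05 FPKM, against at most 0.08, Nr5a2 at 0.17, against at most 0.06, Gata4 at 0.15, against at most 0.04, and Ptf1a at 0.13, against 0 in all 5. Islet and duct markers were low as well. None of 13 islet genes reached 1 FPKM, and 6 were at 0. Ins2 and Ins1, the insulin genes, were at 0.29 and 0.11 FPKM, and the summed level of the list was 0.95 FPKM, against 0.23 to 0.52. None of 9 duct genes reached 10 FPKM, with Krt19 at 2.05 (0.36 to 1.55 in the others) and Cftr at 0.

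The library was spleen by its own markers. The 11 spleen and B cell genes summed to 1997 FPKM, against 2224 to 2444 in the other 5 libraries. Of these, 5 were below all 5 other libraries, such as the B cell receptor gene Cd79a at 819.9 FPKM against 914 to 1116. Another 4 were above them, such as the red pulp macrophage gene Spic at 75.96 FPKM against 38.2 to 73.95. Of all genes 18.2% were above, and the share below was not counted. In bulk RNA, fewer cells of a type and less RNA per cell cannot be told apart. The part of pancreatic tissue in these levels was not tested.

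In duodenum, the highest levels of 9 members were in estrus replicate 1. The exception was Clps. Ctrb1 was at 16.1 FPKM in that library, at 0 and 0.14 in the other estrus libraries and at 0.36, 0.36 and 3.28 in diestrus. Cela2a was at 12.6 FPKM, against 0 and 0.14 in estrus and 1.16, 0.16 and 1.98 in diestrus. Pnlip was at 5.54 FPKM, against 0 and 0.04 in estrus and 0.16, 0.08 and 0.72 in diestrus. For these 3 genes, diestrus replicate 3 was the next highest library and estrus replicate 2 was listed at 0.

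Cela1 was at 27.3 FPKM in duodenum estrus replicate 1 and between 3.98 and 5.35 in the other 5 libraries, so it was present throughout the tissue as it was in spleen. Prss2 (3.93 FPKM), Cpa1 (3.59), Cpb1 (3.31) and Cel (2.09) did not exceed 0.58 FPKM in the other libraries. Pnliprp1 was at 0.96 FPKM, against 0.23 to 0.60, the smallest separation of the 9. None of the 10 met the rule of 10 FPKM and 10-fold, which 0.451% of all genes met, and 34% of all genes were above the other 5 libraries in this sample. Clps was at 30.6 FPKM in estrus replicate 1, within the range of the others (8.28 and 42.4 in estrus, 53.2, 84.5 and 12.4 in diestrus).

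The proportions among the enzymes in duodenum estrus replicate 1 were set beside those in spleen estrus replicate 2. Each member was expressed as a percent of its level in the spleen library, and in duodenum estrus replicate 1 the median was 0.949%, from 0.612% for Pnliprp1 to 6.28% for Cela1. Without Cela1 and Clps, which were present in other libraries as well (a choice made after the values were seen), Ctrb1 made up 33.5% of the summed FPKM of the other 8 genes in the duodenum library and 31.3% in the spleen library. Cela2a made up 26.2% and 20.9%, Pnlip 11.5% and 15.2%, and Cel 4.34% and 5.29% in the same order. Over the members and the 17 other enzymes, Pearson's r of log10(FPKM + 0.1) between these 2 libraries was 0.845 (27 genes, which are not independent). Over the 10 members alone it was 0.703. With Cela1 and Clps included, Cela1 made up 25.8% of the members' sum in the duodenum library and 7.39% in the spleen library, and Clps 28.9% and 9.54%.

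**Figure D2:**
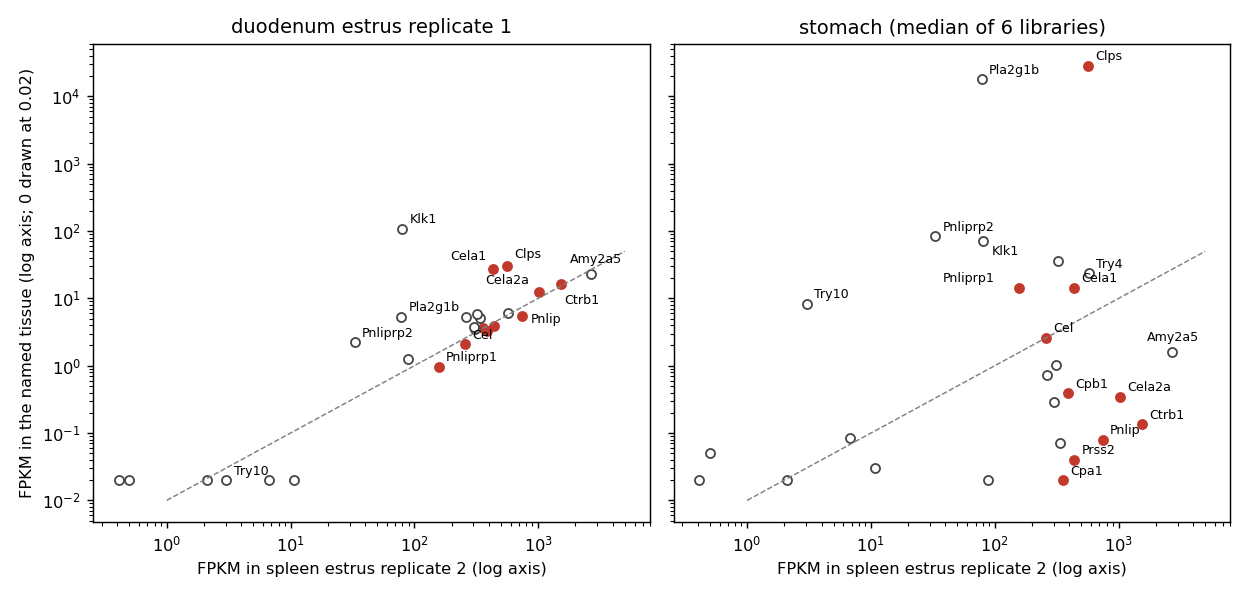
FPKM of 10 members (filled) and 17 other acinar enzyme genes (open) in spleen estrus replicate 2 (x, log axis) against duodenum estrus replicate 1 (left) and the median of 6 stomach libraries (right), with values of 0 drawn at 0.02 and a dashed line at 1 percent of the spleen level. Most genes above 10 FPKM in the spleen library lie near the line on the left, and on the right Clps and Pla2g1b lie far above it while Ctrb1, Cela2a, Pnlip, Prss2 and Cpa1 lie far below.

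Markers of other cell types also differed in duodenum estrus replicate 1. Of 10 gastric gland genes, 9 were above all 5 other duodenum libraries and 6 met the rule, among them the mucous cell genes Tff1 (29618 FPKM, against at most 20.7) and Gkn2 (15012, against at most 2.96), and the list summed to 53621 FPKM, against 1.02 to 27.3. The antral hormone gene Gast was at 29.6 FPKM, against 0 in all 5, while the parietal cell genes Atp4a and Atp4b were at 0.13 and 0.17. Of 11 spleen and B cell genes, 7 were above all 5 others, with Cd79a at 233 FPKM against 16.2 to 52.8. Of 10 enterocyte genes, 9 were below all 5 others, a position whose share over all genes was not counted. The enteropeptidase gene Tmprss15 was at 12.8 FPKM, against 14.5 to 106. Of 9 pancreatic duct genes, 7 were above and 2 met the rule, Muc1 (61.3 FPKM, against at most 0.91) and Sctr (11.5, against at most 0.74). The list summed to 3495 FPKM, against 607.5 to 1549, with Krt19 at 3008. These genes are not particular to ducts in this series. In stomach the medians were 475 FPKM for Muc1, 21.0 for Sctr and 1926 for Krt19, while Krt7, at 341 FPKM in this library, had a stomach median of 16.0. None of the 6 acinar transcription factors was above the other 5 libraries, and Ptf1a was at 0. Of 13 islet genes, 4 were above and 4 below, with Ins1 at 0.38 FPKM and Gcg at 0.40. The part that stomach, lymphoid, duct or pancreatic tissue had in the members' levels of this library was not tested.

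Duodenum diestrus replicate 3 held the next highest median of the members in this tissue. With estrus replicate 1 set aside, 6 of 10 members were higher there than in the other 4 libraries, against 10.7% of all genes, and the median member stood at 0.154% of its level in spleen estrus replicate 2. Ctrb1 made up 40.6% of the 8 genes in it and Pnliprp1 7.43%. Over the 27 enzymes r with spleen estrus replicate 2 was 0.4875, and over the 10 members it was 0.506. The gastric genes summed to 1.02 FPKM there, the lowest of the 5 libraries (1.58 to 27.3 in the others), and the spleen and B cell genes to 32.1, within the range of the others (28.1 to 95.8).

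Vein diestrus replicate 3 held the next highest median of the members after duodenum estrus replicate 1, relative to spleen estrus replicate 2. Of the 10 members, 8 were higher in it than in the other 5 vein libraries, against 10.3% of all genes. Ctrb1 was at 2.74 FPKM, Cela2a at 2.82, Pnlip at 1.62, Clps at 1.54, Cpa1 at 1.11, Prss2 at 0.78, Cel at 0.67 and Pnliprp1 at 0.13, while Cela1 (5.02) and Cpb1 (0.95) lay within the range of the others. Amy2a5 was at 5.08 FPKM, against at most 0.34. Of 10 gastric gland genes 6 were also above the other 5 vein libraries, with a sum of 8.99 FPKM against 0.47 to 5.19, and their part was not tested. The median member stood at 0.252% of its level in spleen estrus replicate 2, and over the 27 enzymes r with that library was 0.844. Across the series 9 libraries had a value above 0 for all 10 genes, and in 43 of the 89 libraries other than spleen estrus replicate 2 the median member was at 0.

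**Figure D3:**
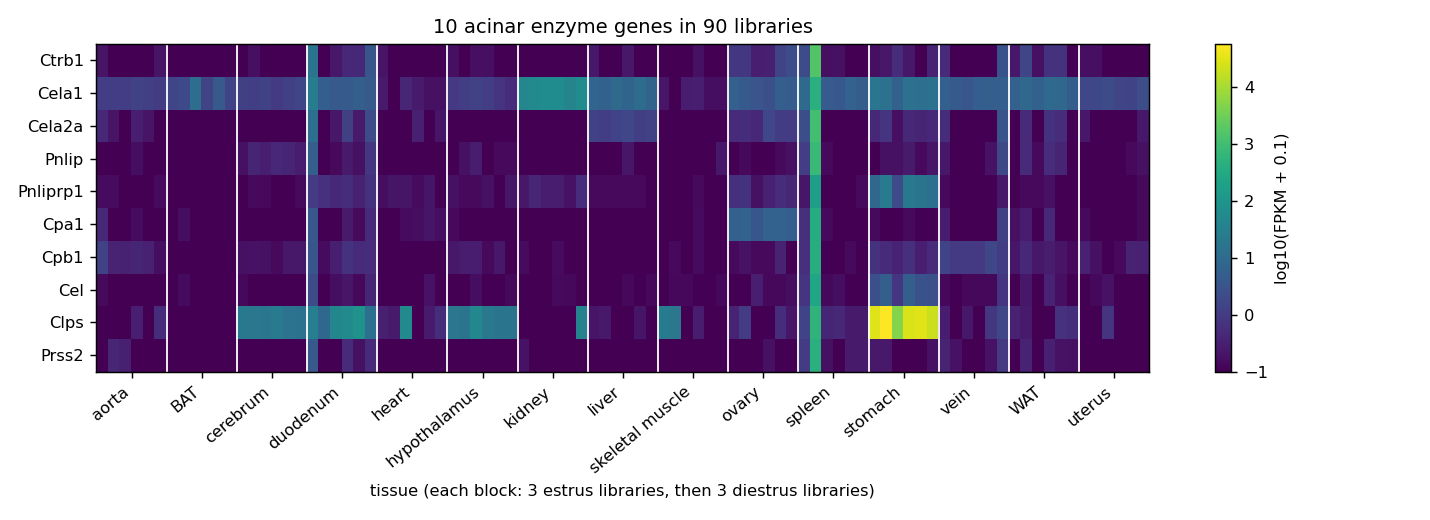
Level of the 10 genes as log10(FPKM + 0.1) in 90 libraries, in blocks of 6 per tissue with estrus first. Spleen estrus replicate 2 is the one column high for all 10 genes, Cela1 is above background in most tissues, Clps is highest in stomach (up to 54582 FPKM) and present in cerebrum, hypothalamus and duodenum, and Cpa1 is present in all 6 ovary libraries (3.31 to 6.38 FPKM).

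Stomach had another pattern, in which Clps was by far the highest member. It was at 30145, 54582 and 4877 FPKM in estrus replicates 1 to 3 and at 27001, 30205 and 19729 FPKM in diestrus replicates 1 to 3. The estrus range enclosed the diestrus range. Every stomach library was thus above the 562 FPKM of spleen estrus replicate 2 and above the next tissue, duodenum, where the highest value was 84.5. Clps alone brought the 10 genes to between 0.809% and 8.76% of the summed FPKM of the stomach libraries.

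The other members present in stomach were Pnliprp1, Cela1 and Cel. Pnliprp1 was at 8.61, 21.95 and 2.03 FPKM in estrus and at 21.4, 16.5 and 12.2 in diestrus, and its stomach range lay above that of every other tissue apart from spleen estrus replicate 2. Cela1 was at 17.6, 14.6 and 5.90 FPKM in estrus and at 14.9, 12.2 and 14.3 in diestrus. Cel was at 2.41, 5.41 and 0.72 FPKM in estrus and at 5.47, 2.76 and 2.49 in diestrus. For these 4 genes estrus replicate 3 was the lowest stomach library, and the phases overlapped.

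The remaining 6 members did not exceed 1 FPKM in any stomach library. Cpa1 was at 0.04 FPKM in 2 of the 6 libraries and at 0 in the others, and Prss2 was at most 0.15, Pnlip at most 0.16, Ctrb1 at most 0.44, Cpb1 at most 0.59 and Cela2a at most 0.68 FPKM. Pnliprp1 made up 76.2% of the 8 genes without Clps and Cela1 in stomach estrus replicate 2, where it had made up 3.20% in spleen estrus replicate 2, and Ctrb1 made up 0.452%, where it had made up 31.3%. Over the 27 enzymes r with spleen estrus replicate 2 lay between 0.131 and 0.232 in the 6 stomach libraries, and over the 10 members between -0.24 and -0.066. Stomach thus held 4 of the 10 genes above 1 FPKM in most libraries, in proportions other than those of the spleen library.

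Among the other acinar enzymes, stomach held the secreted phospholipase gene Pla2g1b at a median of 17872 FPKM (2946 to 35467), the lipase-related gene Pnliprp2 at 84.3 (8.76 to 115), Klk1 at 72.1 (8.41 to 368) and Rnase1 at 35.6 (25.4 to 61.7), followed by Try4 at 23.8 (4.55 to 56.3). Of the granule and accessory genes, Tff2, which gastric mucous cells also make, was highest with a median of 5089 FPKM, and Sycn was at 5.89 (2.37 to 7.24). Pdia2, a pancreatic disulphide isomerase gene, was at 178 FPKM (33.8 to 308), and the cholecystokinin receptor gene Cckar at 15.4 (1.11 to 22.5). Amy2a5 was at 1.62 FPKM (0 to 9), so the gene with the highest level in spleen estrus replicate 2 was low here. Among the transcription factors Gata4, which other gut epithelia also express, was at a median of 95.2 FPKM (62.9 to 107) and Bhlha15 at 7.82 (1.11 to 13.2), while Ptf1a and Rbpjl were at medians of 0.77 FPKM (0.17 to 1.47) and 0.90 FPKM (0.48 to 1.49). Ptf1a was at 0 in all duodenum libraries.

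The level of Clps was set beside that of the chief cell gene Pgc, which encodes pepsinogen C. Pgc was 1.66 to 3.26 times as high as Clps in the 6 stomach libraries, with a median of 2.01, and Pla2g1b was 0.464 to 0.654 times as high. Estrus replicate 3 was the lowest of the 6 for all 3 genes. In that library 5 of 10 members were below the other 5 stomach libraries, against 18.8% of all genes, and so were 6 of 10 gastric gland genes. In spleen estrus replicate 2 the same ratio of Pgc to Clps was 0.0020, and in the 5 duodenum libraries other than estrus replicate 1 Pgc was at most 2.34 FPKM.

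Clps was also measured in tissues not known for digestive enzymes. In the 12 tissues other than spleen, duodenum and stomach, 16 of 72 libraries had 10 or more FPKM of Clps. These were all 6 cerebrum libraries (13.7 to 25.2 FPKM), all 6 hypothalamus libraries (15.8 to 49.3), heart estrus replicate 3 (54.5), kidney diestrus replicate 3 (34.5) and skeletal muscle estrus replicates 1 and 2 (23.97 and 18.8). In the other libraries of heart, kidney and skeletal muscle Clps did not exceed 0.46 FPKM, so in those tissues 1 or 2 libraries stood apart. In the 16 libraries Pgc was 1.62 to 2.39 times as high as Clps and Pla2g1b 0.499 to 0.709 times as high, next to the stomach ratios given above, while Pnliprp1 did not exceed 0.45 FPKM. In heart estrus replicate 3, for example, Pgc was at 95.9 FPKM, Pla2g1b at 35.0 and Gkn2 at 24.8. The part of stomach RNA in these values was not tested.

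**Figure D4:**
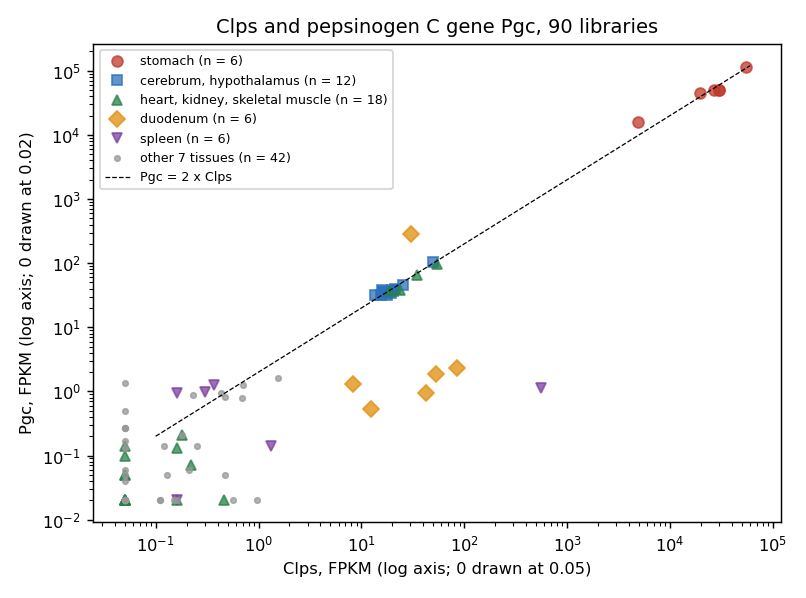
Pgc (y) against Clps (x) in FPKM in 90 libraries, both on log axes with values of 0 drawn at 0.02 and 0.05, and a dashed line where Pgc is 2 times Clps. The stomach libraries and the 16 libraries of cerebrum, hypothalamus, heart, kidney and skeletal muscle with 10 or more FPKM of Clps lie along the line, duodenum estrus replicate 1 lies above it, and the other duodenum libraries and spleen estrus replicate 2 lie below it.

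Cela1 was the member with the widest distribution. It was at 1 or more FPKM in 71 of 89 libraries, without the shallow BAT library, where Prss2 reached that level in 2 and Pnlip in 3. Kidney had the highest median, 59.8 FPKM (42.1 to 63.2), with no overlap with the next tissue, stomach (14.5, 5.9 to 17.6). Below them the ranges of stomach, liver (7.38, 6.1 to 10.5), WAT (7.01, 4.8 to 9.13) and spleen (5.62, 3.74 to 436) overlapped from each to the next. In kidney the estrus values were 46.7, 57.8 and 63.2 FPKM and the diestrus values 61.7, 42.1 and 62.7. No other kidney member reached 1 FPKM except Clps in diestrus replicate 3.

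Cpa1 was at 5.57, 6.33 and 3.31 FPKM in ovary estrus libraries and at 6.38, 6.29 and 5.07 in ovary diestrus libraries, levels above those of all other libraries except spleen estrus replicate 2 and, for the lowest of the 6, duodenum estrus replicate 1 (3.59). Ctrb1 was in the same ovary libraries at 0.21 to 2.19 FPKM and Cpb1 at no more than 0.25. Cela2a had its highest median in liver, 1.21 FPKM (1.02 to 1.60), and there Ctrb1 did not exceed 0.14 and Cpa1 was at 0. Cpb1 had its highest median in vein, 0.91 FPKM (0.81 to 1.56), and the phases overlapped. For Ctrb1, Cela2a, Pnlip, Prss2, Cpa1 and Cpb1 each of the 5 tissues with the highest medians overlapped with the next in range. The highest tissue median was 0.755 FPKM for Ctrb1 (ovary), 0.25 for Pnlip (cerebrum) and 0.23 for Prss2 (duodenum).

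Estrus and diestrus were compared in each tissue with limma on log2(FPKM + 1), over genes that averaged 1 FPKM or more, and a call needed a log2 difference of 1 or more and a Benjamini-Hochberg adjusted p within the tissue no greater than 0.05. The spleen fit left out estrus replicate 2 and had 5 libraries. Of 150 pairs of a member and a tissue, 27 could be tested, with 9 members in at least 1 tissue and Prss2 in none. None of the 27 was called, beside 0.00108% of all 185385 gene and tissue pairs (2 calls), and 1 had an unadjusted p under 0.05. The adjusted p lay between 0.204 and 1.00. Of the 387 pairs of a tissue and a gene of the other lists, none was called in either direction.

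In duodenum 5 members were tested, beside 0% of 12410 genes called, 1677 of which had an unadjusted p under 0.05. Cela1 differed by 0.80 (SE 0.64, adjusted p 0.549), Clps by -0.76 (SE 0.82, adjusted p 0.658), Pnlip by 0.55 (SE 0.74), Ctrb1 by 0.43 (SE 1.13) and Cela2a by 0.35 (SE 1.01) on the log2 scale, estrus minus diestrus. The phases overlapped for all 5, where 26.6% of the tested genes did not overlap. Ctrb1, Cela2a and Pnlip reached a mean of 1 FPKM only through estrus replicate 1, so their estimates cannot separate the phase from that library. Without estrus replicate 1 the difference of Cela1 was 0.013. That of Clps lay between -1.54 (without diestrus replicate 3) and -0.097 (without estrus replicate 2).

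In stomach 4 members were tested, beside 0% of 12670 genes called, 935 of which had an unadjusted p under 0.05. Pnliprp1 differed by -0.98 (SE 0.72, adjusted p 0.700) and Clps by -0.33 (SE 0.96, adjusted p 0.901), and Cel and Cela1 by -0.39 (SE 0.52) and -0.23 (SE 0.38). In 1 limma fit of all libraries, where the spread is pooled over tissues, Pnliprp1 had an SE of 0.25 and an adjusted p of 0.00778 and fell just under the log2 limit of 1, and with single libraries left out it lay between -1.68 (without estrus replicate 2) and -0.22 (without estrus replicate 3). All 4 overlapped between the phases, where 13.7% of the tested genes did not. Cela1 was the one member tested in spleen and differed by 0.33 (SE 0.30, adjusted p 1.00) with 5 libraries, beside 0.00803% of genes called.

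The largest phase difference of a member was that of Clps in skeletal muscle, 2.90 (SE 1.12, unadjusted p 0.0355, adjusted p 0.204), beside 0.00936% of genes called. It came from the values of 23.97 and 18.8 FPKM in estrus replicates 1 and 2, with 0 in estrus replicate 3 and 0.18, 0 and 0 in diestrus. Clps reached a mean of 1 FPKM in this tissue only through those 2 libraries. Without estrus replicate 3 the difference was 4.40 and was called (limma, adjusted p 0.000155), beside 16 of 10735 genes called in that setting. That call follows from leaving out the estrus library at 0, so it is not a result about the phases. Pgc in the 2 high libraries was at 38.8 and 36.9 FPKM and Gkn2 at 6.99 and 7.35, against 0.14 and 0 in estrus replicate 3, and the part of stomach RNA was not tested. Clps differed by 1.85 (SE 1.33) in heart and by -1.72 (SE 1.24) in kidney, each through the single library named above.

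**Figure D5:**
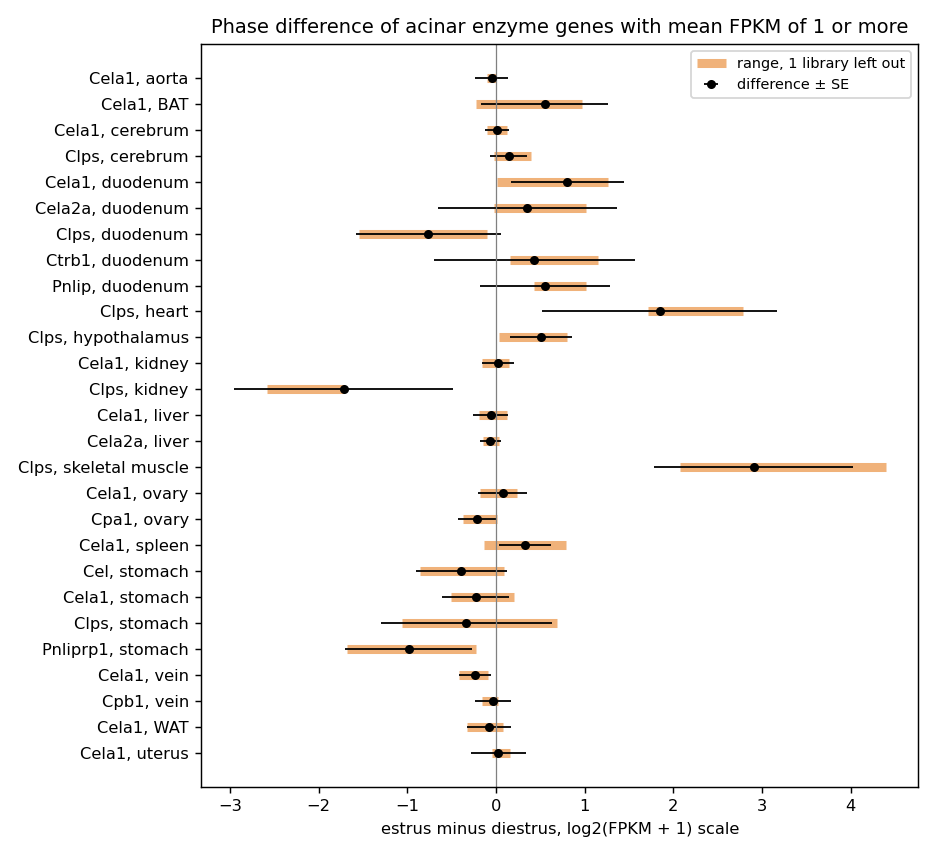
Estrus minus diestrus on the log2(FPKM + 1) scale (x) for the 27 pairs of a gene and a tissue tested (y). Points and bars are the limma estimate and its SE. Orange bands are the range with single libraries left out, where the gene still averaged 1 FPKM. The bands lack the fit without estrus replicate 1 for Ctrb1, Cela2a and Pnlip in duodenum. They also lack Clps without heart estrus replicate 3 or kidney diestrus replicate 3, and Cpb1 without vein diestrus replicate 2. Such a band does not show how far the difference rests on that library. None of the 27 differences was called, and Clps in skeletal muscle is farthest from 0, at 2.90.

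The genes whose levels followed the mean log2 level of the 10 members most closely over 90 libraries were, in order, Try5 (Pearson's r 0.92), Try4, Amy2a5, Sycn, 2210010C04Rik, Amy2b, Reg2, Cela3b, Rnase1 and Ctrl (0.78), among 14441 genes at 10 or more FPKM in some library. The libraries share a tissue in groups of 6, and spleen estrus replicate 2 is a single point far from the others. All 10 belonged to the lists of acinar enzymes or accessory genes, which were chosen with earlier results of these data known. The members were selected on that same library, so this membership is a description and no support. Without spleen estrus replicate 2 the r of these 10 genes lay between 0.249 (Amy2b) and 0.896 (Try4). Without that library the nearest were Capn8 (0.90), Capn9 and Try4, and 1 of the 10 genes was shared. Capn8, Capn9, Ern2, Cldn18 and Muc6, which stood among those 10, had mean levels of 31.1 to 1516 FPKM in stomach.

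Some members share sequence with related genes, which can divide reads between them. Of the 50-base stretches of the Prss2 transcript, 7.83% were also found in Try10, Try4 or Try5, and 25.6% of those of Cela2a were also in Ctrc, while the other 8 members shared none with another gene. These were exact matches in GENCODE transcripts, while the study aligned its reads to an NCBI version of the genome. The values of Prss2 and Cela2a are uncertain by an amount that these shares do not measure.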

How the data were processed

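RNA libraries (TruSeq, BGISEQ-500) of 90 tissue samples were processed by the authors. Per the study's methods, reads were filtered with SOAPnuke, aligned with Bowtie2 2.2.5 to GRCm38.p5 and quantified per gene with RSEM 1.2.8, without pooling replicates, and 3 mice per phase gave the tissues. The deposited values are FPKM by Entrez identifier. Read counts were not used here, so no count test was run. Depth was estimated from the steps of low FPKM values of 933 genes of 300 to 1100 bases (44.1% to 70.6% of values whole within 0.2 reads). The low end of that range is near what evenly spread values would give. The study's methods state more reads generated per sample, so the depths and the level of 1 read are rough. RefSeq (GRCm38.p6) named 20265 of 20414 genes. The fits used limma 3.58.1 with an intensity trend, in R 4.3.3, on log2(FPKM + 1) per tissue, without a block, and were tested on simulated data. Alternatives changed the pseudocount, filter, scaling, block and libraries. Python 3.11.15 with scipy 1.17.1, pandas 2.3.3 and numpy 2.4.6 gave the other values, and matplotlib 3.10.9 the plots. Replicate numbers were not treated as pairs: in 0 of 15 tissues did every same-numbered pair deviate together (r over 0.1). Single pairs ranged from -0.57 (cerebrum) to 0.47 (stomach), and with so few libraries this check cannot tell whether the numbers mark pairs. An exact permutation test of 3 against 3 libraries cannot go below 0.1. The 10 genes and all lists were chosen with earlier results of these data known. Named genes were the 10 members, up to 4 genes of each list by level in a library or tissue, and the 10 genes most like the members. Further genes of the lists, such as Ptf1a, Spic, Tmprss15, Atp4a and, in stomach, Try4 and Amy2a5, were named after their values were seen. The methods state a younger age than the 10 weeks of the labels.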

Additional observations from a re-analysis of the deposited data

How the results depend on the processing

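The count of called members stayed at 0 in the 14 tissues and in spleen with a pseudocount of 0.1, without the filter on low values, with upper quartile scaling, in 1 fit of all libraries, and with the replicate number as a replicate block (0 called). When each replicate was left out in turn it was 0 to 1 in the 14 tissues, the 1 being Clps in skeletal muscle without estrus replicate 3, and 0 in spleen. Over all genes, the 1 fit called 538 of 12410 in duodenum and 376 of 12670 in stomach. It ranged from 0 of 11592 in heart to 994 of 11104 in BAT. In BAT, 914 of the 994 were lower in estrus, the group that holds the shallow library. The duodenum estrus group holds replicate 1, whose gastric gland genes summed to 53621 FPKM. The part of these libraries in the counts was not tested. In the other settings no tissue had more than 87 genes called (of 10653, skeletal muscle without estrus replicate 1). With so few calls among all genes, 0 called there says little about the members. With all 6 spleen libraries, a setting added after the data were seen, Cela1 differed by 2.29. That value is a description, because the genes were selected on estrus replicate 2. The median log2 excess of the members in spleen estrus replicate 2 over the mean of the other 5 spleen libraries was 8.45, and 10.5 with a pseudocount of 0.1, which by construction enlarges ratios of low values. Of the 10 genes most like the members, 1 remained without spleen estrus replicate 2 and 1 with Spearman's rho.

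Of 27 phase differences, 18 changed sign in at least 1 alternative (30 of 291). With a pseudocount of 0.1 they were -0.39 for Cela2a and -0.29 for Ctrb1 in duodenum, and with upper quartile scaling 0.0022 for Cpb1 in vein. With each replicate left out, Cela1 ranged from -0.10 to 0.0020 in aorta, -0.22 to 0.97 in BAT, -0.097 to 0.13 in cerebrum, -0.16 to 0.14 in kidney, -0.20 to 0.12 in liver, -0.18 to 0.24 in ovary, -0.13 to 0.79 in spleen, -0.51 to 0.21 in stomach, -0.32 to 0.079 in WAT and -0.051 to 0.16 in uterus. Clps ranged from -0.023 to 0.39 in cerebrum and -1.06 to 0.68 in stomach, Cela2a from -0.024 to 1.01 in duodenum and -0.14 to 0.030 in liver, Cpa1 from -0.37 to 0.011 in ovary, Cel from -0.86 to 0.089 in stomach and Cpb1 from -0.16 to 0.028 in vein. Without duodenum estrus replicate 1, its highest library, Cela2a averaged under 1 FPKM and was not fitted. The same held for Cpb1 without vein diestrus replicate 2. Their ranges leave out those fits. Apart from the pseudocount, whose effect is by construction, the cause of the sign changes was not tested.

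Values near 1 read limit the low members. BAT estrus replicate 3, at about 73800 reads, cannot show them, and Cela1 at 12.2 FPKM there rests on few reads.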
